A study of Mus musculus with 24 samples.

Results

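The 10 genes described here encode checkpoint ligands and inhibitory receptors of macrophages, and they were taken by symbol from the 55487 gene IDs of a count matrix with 24 libraries. They are Cd274 and Pdcd1lg2 (PD-L1 and PD-L2), Cd80 and Cd86, Vsir (VISTA), Lgals9 (galectin-9), Havcr2 (TIM-3), Siglece, Sirpa and Pirb. All 10 symbols matched 1 ID each. Of the 3941 genes that counted as expressed, 9 were members, and Pdcd1lg2 fell below the limit. To count as expressed, a gene had to average at least 10 CPM (counts scaled to the library's total) over the 4 tumors and at least 10 times the count that background would give a gene of its length.

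Checkpoint ligands on a macrophage bind receptors of T cells: PD-L1 and PD-L2 bind the inhibitory receptor PD-1, while CD80 and CD86 bind both activating CD28 and inhibitory CTLA-4. Inhibitory receptors of the macrophage itself, such as Siglec-E, SIRPα and PIR-B, carry tyrosine motifs in their cytoplasmic tails that recruit the phosphatases SHP-1 and SHP-2 and restrain activation or phagocytosis. Tumor macrophages often carry PD-L1, whose gene responds to interferon-γ.

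The cells were tumor-associated macrophages sorted as CD45+ CD11b+ F4/80+ from orthotopic tumors of MC38, a colon carcinoma line of C57BL/6 mice. APC-KO macrophages came from 2 tumors grown from MC38 cells without Apc, a gene that restrains Wnt signalling, and APC-WT macrophages came from 2 tumors of MC38 cells that kept it. Both were grown in C57BL/6J mice, for which no Apc allele is stated. The genotype is therefore that of the tumor cells, the Apc counts of the sorted macrophages do not check it, and the design asks how macrophages differ between the tumors. Each tumor gave 6 libraries by an ultra low input protocol, so the tumor is the unit for the genotype and p-values between single tumors measure the spread between libraries. The sources used here do not give the age or sex of the mice, the number of knockout clones, or whether a tumor sample pooled several animals.

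The libraries of the genotypes differed in depth and composition. A library of APC-KO tumor 1 held 8895722 to 19328572 counts and one of APC-KO tumor 2 held 13464061 to 17196820, against 74972634 to 93568353 for APC-WT tumor 1 and 28018638 to 46837543 for APC-WT tumor 2. Satellite-like loci took 37.9% and 38.5% of the counts of the APC-KO tumors against 1.32% and 7.08% in the APC-WT tumors, and expressed genes took 33.2% and 31.8% against 81.7% and 73.6%. Background expected per kilobase of exon, estimated from 1974 olfactory and vomeronasal receptor genes, made up 17.6% and 17.9% of the APC-KO counts and 0.751% and 5.05% of the APC-WT counts. The log2 change between genotypes also ran with transcript length (rank correlation -0.566 across 3941 genes, which are not independent replicates). Levels below are scaled CPM, that is, CPM with the library size taken from TMM scaling over expressed genes, and changes come from edgeR's quasi-likelihood test with Benjamini-Hochberg adjustment and a per-length offset unless stated otherwise.

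Between genotypes, 6 of the 9 expressed members fell in APC-KO macrophages and 0 rose, where 24.5% of the 3941 expressed genes fell and 24.9% rose at an adjusted p under 0.05. The 6 were Siglece, Cd274, Havcr2, Lgals9, Pirb and Sirpa, with log2 changes from -1.86 to -0.74. Cd86, Vsir and Cd80 did not pass the test. The median log2 change of the 9 was -1.01, against -0.03 over all expressed genes. Havcr2, Siglece and Cd80 met the limit for expressed genes through the APC-WT tumors alone, so the count over 9 is a description. In a fit of genes that met the limit in each genotype, with 6 members among the 1521 genes, Cd274, Lgals9, Sirpa and Pirb were the 4 that passed, at log2 changes of -1.83, -1.22, -0.80 and -1.06, and 25% of those genes fell and 23.6% rose. In bulk RNA of sorted cells, fewer cells that express a gene and less RNA per cell cannot be told apart.

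Whether the members passed also varied with the treatment of transcript length and background. Without the length offset 8 of 9 fell, where 30.7% of expressed genes fell and 32.7% rose. After subtraction of the expected background 5 fell, where 24% of expressed genes fell and 24.1% rose. That fit took its TMM scaling and length offset anew from the subtracted counts. A shift under it therefore does not reflect the gene's own background alone. With TMM scaling over all 53705 genes tested, where the median of the expressed genes lay at a log2 change of -4.01 and that of the members at -5.11, edgeR called 0 genes (0% of those tested). At an unadjusted p under 0.05 that scaling gave 18647 genes, 10 of the members among them, and its lowest adjusted p was 0.0974. All changes below are therefore relative to the expressed genes.

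**Figure D1:**
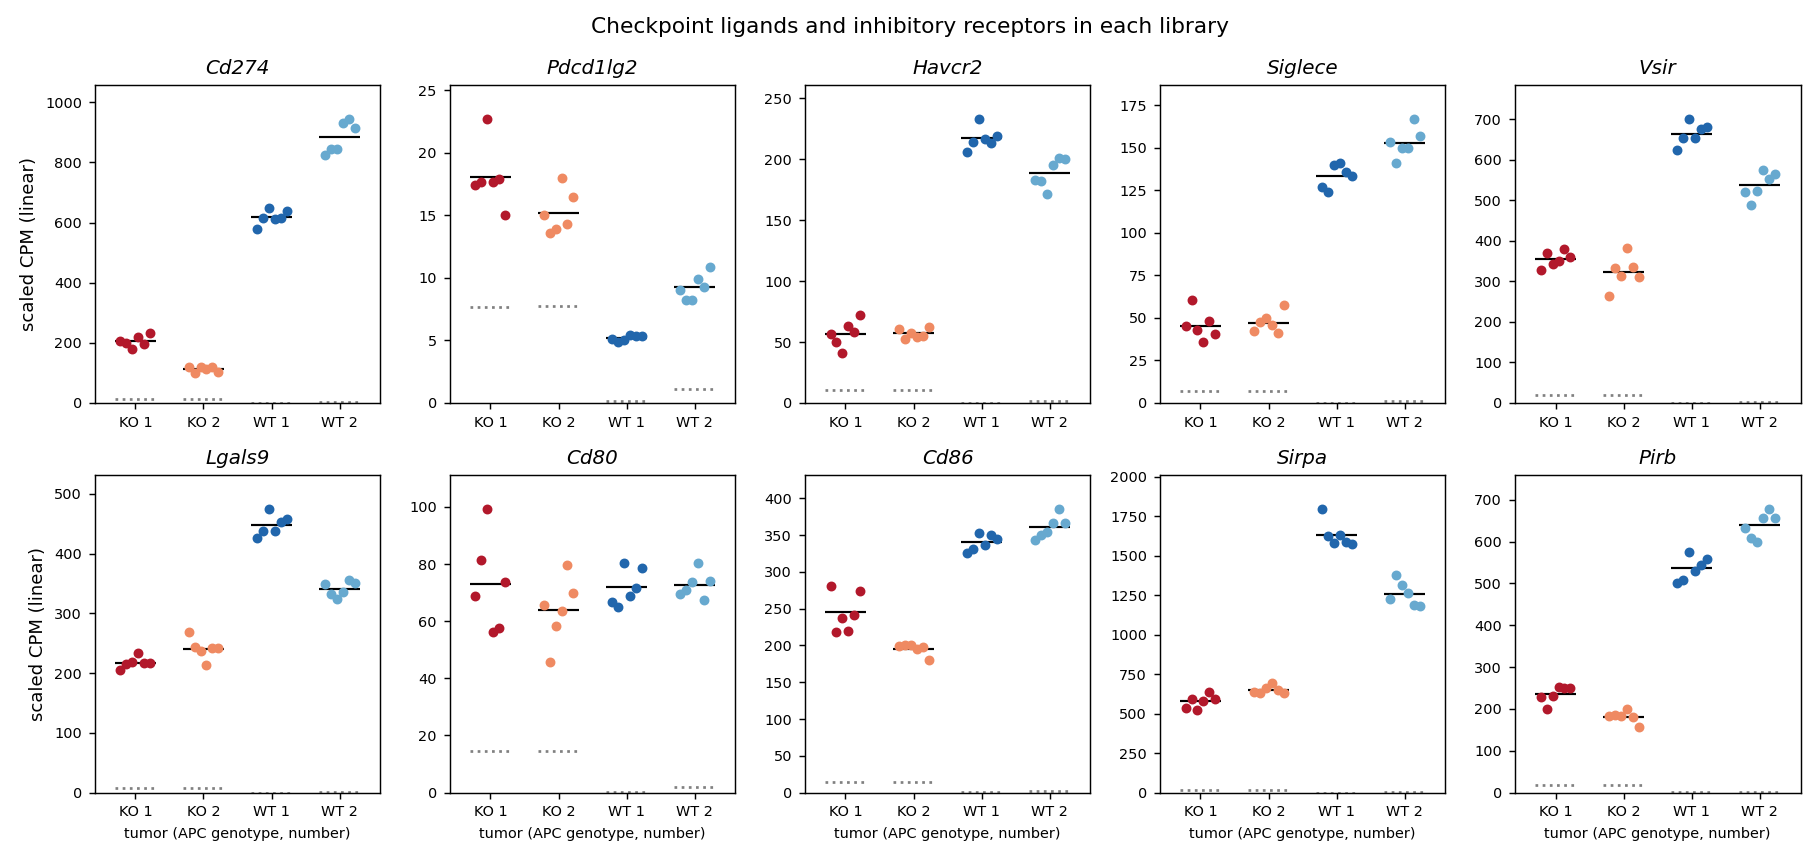
Level of each member in the 24 libraries, in scaled CPM on a linear axis, with 6 libraries for each of the 2 APC-KO and 2 APC-WT tumors (bars are tumor means and dotted lines the expected background). In 8 panels every APC-KO point lies below every APC-WT point, as for 28.4% of expressed genes (for 28.1% every APC-KO point lies above), in the Cd80 panel the genotypes overlap, and in the Pdcd1lg2 panel the APC-KO points lie above the APC-WT points at 2.33 and 1.98 times their background.

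Promoters of members that fell are shown here with the letters of motifs known from interferon and myeloid gene control. Windows of 300 bases around the start of transcription came from RefSeq (GRCm38.p6) for 8 of 10 members. The window of Cd80 lies downstream of the start that GENCODE gives, so it does not hold the bases before that start. The motifs were searched on both strands, overlapping matches included. The interferon response motif, GAAA followed by 2 bases of any kind and GAAA again, was in 3.44% of 32851 promoters and in 1 member, Lgals9. The core letters GAGGAA of PU.1, the master factor of macrophages, were in 28.3% of promoters and in 5 members: Siglece, Pirb, Lgals9, Havcr2 and Pdcd1lg2. A match is not a bound site, and a missing one says only that the letters are not in the window. Shown 5′ to 3′ on the strand of the gene, with motif matches in capitals, are the bases before the start of Siglece (chr7:43660162-43660411, minus strand), which had 3 PU.1 cores, of Lgals9 (chr11:78984947-78985174, minus strand), which had 2 PU.1 cores and 1 interferon response motif, and of Cd274 (chr19:29367188-29367437, plus strand), which had 0 of either.
Siglece: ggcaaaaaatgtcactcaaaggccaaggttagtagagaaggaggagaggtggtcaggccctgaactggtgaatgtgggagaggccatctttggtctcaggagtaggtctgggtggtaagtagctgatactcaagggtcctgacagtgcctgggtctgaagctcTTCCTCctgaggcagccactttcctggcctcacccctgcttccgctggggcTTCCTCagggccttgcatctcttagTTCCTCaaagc
Lgals9: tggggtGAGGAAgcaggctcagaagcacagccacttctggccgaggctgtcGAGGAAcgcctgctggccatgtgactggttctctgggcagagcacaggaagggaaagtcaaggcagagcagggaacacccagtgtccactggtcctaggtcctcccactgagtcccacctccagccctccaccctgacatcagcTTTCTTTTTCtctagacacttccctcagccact
Cd274: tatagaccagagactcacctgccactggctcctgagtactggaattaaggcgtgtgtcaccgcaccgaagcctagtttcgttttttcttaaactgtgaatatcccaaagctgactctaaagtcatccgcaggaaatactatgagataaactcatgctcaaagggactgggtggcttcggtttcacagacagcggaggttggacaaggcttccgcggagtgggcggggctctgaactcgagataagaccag

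Cd274 lies on chr19:29367455-29388095 of GRCm38, on the plus strand, and encodes PD-L1. In APC-KO tumor 1 its 6 libraries read 178.4 at the lowest, 203.2 at the median and 234.1 scaled CPM at the highest, and in APC-KO tumor 2 they read 98.7, 116.1 and 120.2. In the APC-WT libraries the same 3 values were 578.9, 614.8 and 648.4 scaled CPM in tumor 1 and 824.2, 879.4 and 944.1 in tumor 2. No library of one genotype reached the range of the other, and within each genotype the 2 tumors did not overlap either. Tumor means were 205.4 ± 19.4 and 112.4 ± 9.36 scaled CPM in APC-KO and 617.8 ± 24.3 and 883.8 ± 52.1 in APC-WT (SD, n = 6 libraries each), so the mean of the APC-WT tumors was 4.72 times that of the APC-KO tumors. The log2 change was -1.78 ± 0.364 (SE, 2 tumors against 2, edgeR adjusted p = 0.0171). The call was lost without APC-KO tumor 2, when the log2 change was -1.41 with an adjusted p of 0.0534. It was also lost when 2 times the expected background was subtracted, an alternative chosen after seeing the data (-1.31, adjusted p = 0.067). Of the exonic bases of Cd274, 511 (14.1%) are shared with an antisense gene, AC119228.1, and since the strand setting of the counts is not given, reads there cannot be told apart.

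Pdcd1lg2, the neighbouring gene for PD-L2 at chr19:29410919-29471161 on the plus strand, was close to background in the APC-KO tumors, at 2.33 and 1.98 times it, and at 34.5 and 8.47 times it in the APC-WT tumors. Its APC-KO libraries read 15, 17.7 and 22.7 scaled CPM (lowest, median, highest) in tumor 1 and 13.6, 14.7 and 18 in tumor 2, where background alone would give 7.69 and 7.74. Its APC-WT libraries read 4.86, 5.25 and 5.44 scaled CPM in tumor 1 and 8.24, 9.12 and 10.9 in tumor 2, with an expected background of 0.151 and 1.08. The genotypes did not overlap, with the APC-KO libraries above. After subtraction of the background the tumor means were 10.4 and 7.47 scaled CPM in APC-KO and 5.06 and 8.18 in APC-WT, and APC-KO tumor 2 then lay below APC-WT tumor 2. No test was made for this gene. The PD-1 ligands stood apart in level: per kilobase of transcript Cd274 had 56.7 and 31 scaled CPM in APC-KO and 170.6 and 244.0 in APC-WT, against 10.5 and 8.8 in APC-KO and 3.01 and 5.36 in APC-WT for Pdcd1lg2.

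Cd80 and Cd86 lie apart on chromosome 16, at chr16:38455561-38496335 on the plus strand and chr16:36603869-36666081 on the minus strand, and share their T cell partners CD28 and CTLA-4. Cd80 read 56.2, 71.4 and 99.4 scaled CPM (lowest, median, highest) in APC-KO tumor 1, 45.6, 64.6 and 79.6 in APC-KO tumor 2, 64.9, 70.3 and 80.5 in APC-WT tumor 1 and 67.3, 72.3 and 80.3 in APC-WT tumor 2. Its libraries overlapped between genotypes, and the spread between libraries was wider in APC-KO, with SDs of 16.2 and 11.4 scaled CPM against 6.44 and 4.52. Cd80 had a log2 change of 0.26 ± 0.107 with the offset (SE, adjusted p = 0.107) and -0.09 without it (adjusted p = 0.474), so its sign depends on the treatment of length. Expected background was 14.5 and 14.6 of the APC-KO scaled CPM, and net of it the tumor means were 58.4 and 49.2 in APC-KO and 71.6 and 70.7 in APC-WT.

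Cd86 read 218.7, 239.6 and 280.4 scaled CPM in APC-KO tumor 1 and 180.5, 198.8 and 201.0 in APC-KO tumor 2, against 325.8, 340.3 and 352.3 in APC-WT tumor 1 and 343.2, 360.2 and 385.8 in APC-WT tumor 2. Every APC-KO library lay below every APC-WT library, and the APC-WT mean was 1.59 times the APC-KO mean. The log2 change of Cd86 was -0.47 ± 0.161 with the offset (SE, edgeR adjusted p = 0.0666), which did not pass, and -0.65 without it (adjusted p = 0.0237). DESeq2 with the offset gave -0.48 at an adjusted p of 0.0159. The genotypes thus overlapped for Cd80 and not for Cd86, and the difference between the changes of the 2 genes was not tested.

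Vsir encodes VISTA, a ligand and receptor of the B7 family that restrains T cells and is abundant on myeloid cells. It lies on chr10:60346851-60372684, on the plus strand and within Cdh23 on the opposite strand, with 0 shared exonic bases. Its levels were 329.4, 355.5 and 379.7 scaled CPM (lowest, median, highest) in APC-KO tumor 1, 262.9, 323.5 and 382.8 in APC-KO tumor 2, 623.4, 665.7 and 700.9 in APC-WT tumor 1 and 488.8, 538.5 and 575.7 in APC-WT tumor 2. All APC-KO libraries lay below all APC-WT libraries. Vsir has the longest transcript of the members (4846 bp), and the length offset took -0.52 of its log2 difference: the change was -0.27 ± 0.157 with the offset (SE, adjusted p = 0.21) and -0.79 without (adjusted p = 0.0157). After subtraction of the expected background, with scaling and offset refitted, it was -0.02. Net of its expected background, Vsir averaged 319.7 scaled CPM in APC-KO and 599.8 in APC-WT.

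Lgals9, at chr11:78962974-78984946 on the minus strand, encodes galectin-9, a secreted lectin that binds TIM-3. It is the shortest member (1586 bp), so the offset acted the other way. Its 6 libraries read 205.4, 217.2 and 233.1 scaled CPM in APC-KO tumor 1 and 214.2, 241.8 and 268.2 in APC-KO tumor 2, against 425.8, 445.1 and 475.2 in APC-WT tumor 1 and 323.4, 342.8 and 355.2 in APC-WT tumor 2. The genotypes did not overlap, and APC-WT tumor 2 lay nearest to the APC-KO tumors. For Lgals9 the log2 change was -1.24 ± 0.209 (SE, adjusted p = 0.0105) and without the offset -0.77 (adjusted p = 0.0201). Without APC-KO tumor 1 or APC-KO tumor 2 the change was -1.15 and -1.33, with adjusted p-values of 0.0675 and 0.0529.

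Havcr2, at chr11:46454935-46481255 on the plus strand, encodes TIM-3, a receptor that restrains T cells and also myeloid cells. Its levels were 40.8, 57.4 and 72.1 scaled CPM (lowest, median, highest) in APC-KO tumor 1, 52.9, 56.2 and 62.6 in APC-KO tumor 2, 206.3, 215.4 and 233.0 in APC-WT tumor 1 and 171.1, 189.1 and 200.9 in APC-WT tumor 2. The APC-KO tumors overlapped each other and both lay below the APC-WT tumors, whose mean was 3.56 times theirs. The log2 change of Havcr2 was -1.55 ± 0.119 (SE, adjusted p = 0.00292), and it passed the test with any single tumor left out (-1.66 to -1.43). Like Siglece it met the limit for expressed genes through the APC-WT tumors alone.

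Siglece encodes Siglec-E, a receptor for sialic acids on mouse macrophages and neutrophils, and lies on chr7:43651070-43660161 on the minus strand. It had 35.7, 44.1 and 60.3 scaled CPM in APC-KO tumor 1 and 40.9, 46.6 and 57.6 in APC-KO tumor 2, against 124.2, 134.7 and 140.9 in APC-WT tumor 1 and 141.2, 151.9 and 167.0 in APC-WT tumor 2. No library overlapped between genotypes, and the APC-KO levels were 6.33 and 6.54 times their expected background. The log2 change of Siglece was -1.86 ± 0.112 (SE, adjusted p = 0.00259), and -1.92 to -1.78 with any single tumor left out, each past the test. Siglece is also short (1849 bp), and without the offset its change was -1.60.

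Sirpa, on chr2:129592835-129632228 on the plus strand, encodes SIRPα, the receptor through which CD47 on a target cell restrains phagocytosis. It read 524.7, 585.8 and 639.3 scaled CPM in APC-KO tumor 1 and 630.4, 641.4 and 696.0 in APC-KO tumor 2, against 1576, 1605 and 1797 in APC-WT tumor 1 and 1181, 1246 and 1376 in APC-WT tumor 2. No APC-KO library reached the APC-WT range, with an APC-WT mean 2.36 times the APC-KO mean. Net of its expected background, Sirpa averaged 594.2 scaled CPM in APC-KO and 1443 in APC-WT. Sirpa changed by -0.74 ± 0.186 (SE, adjusted p = 0.0294) with the offset and -1.21 without. It no longer passed after subtraction of the expected background (-0.48, adjusted p = 0.0872) or of 2 times that background (-0.03, adjusted p = 0.905), nor without APC-KO tumor 1 (-0.67, adjusted p = 0.145), APC-KO tumor 2 (-0.82, adjusted p = 0.105) or APC-WT tumor 1 (-0.56, adjusted p = 0.0833).

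Pirb, on chr7:3711409-3720391 on the minus strand, encodes PIR-B, a receptor for MHC class I. Its libraries had 200.4, 240.0 and 253.4 scaled CPM in APC-KO tumor 1 and 157.7, 182.6 and 199.5 in APC-KO tumor 2, against 500.3, 537.4 and 575.6 in APC-WT tumor 1 and 599.3, 644.5 and 678.9 in APC-WT tumor 2. All 4 tumors were apart from each other, with both APC-KO tumors lowest. The log2 change of Pirb was -1.01 ± 0.197 (SE, adjusted p = 0.0152), and without APC-KO tumor 2 it was -0.83 with an adjusted p of 0.0818. With 2 times the expected background subtracted it was -0.48 (adjusted p = 0.152). Pirb and Sirpa have relatives of similar sequence, among which the counting may have split reads. How alike the sequences are was not checked here. Of the 10 relatives listed, 4 were in the table under their symbols: Sirpb1a fell (log2 change -1.27, adjusted p = 0.00348), as did Sirpb1b (-0.55, 0.0196) and Sirpb1c (-0.46, 0.0371), while Pira2 did not pass (-0.60, adjusted p = 0.0598). All 4 met the limit for expressed genes through the APC-WT tumors alone, so these values are a description. Without a filter on low counts Sirpb1b did not pass (adjusted p = 0.0539), and Sirpb1c did not with background subtracted (0.0513) or the offset on exonic length (0.0507). Sirpb1b and Sirpb1c did not pass without APC-KO tumor 1 (adjusted p = 0.104 and 0.128) or APC-KO tumor 2 (0.108 and 0.195), and Sirpb1c also not without APC-WT tumor 1 (0.0908).

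**Figure D2:**
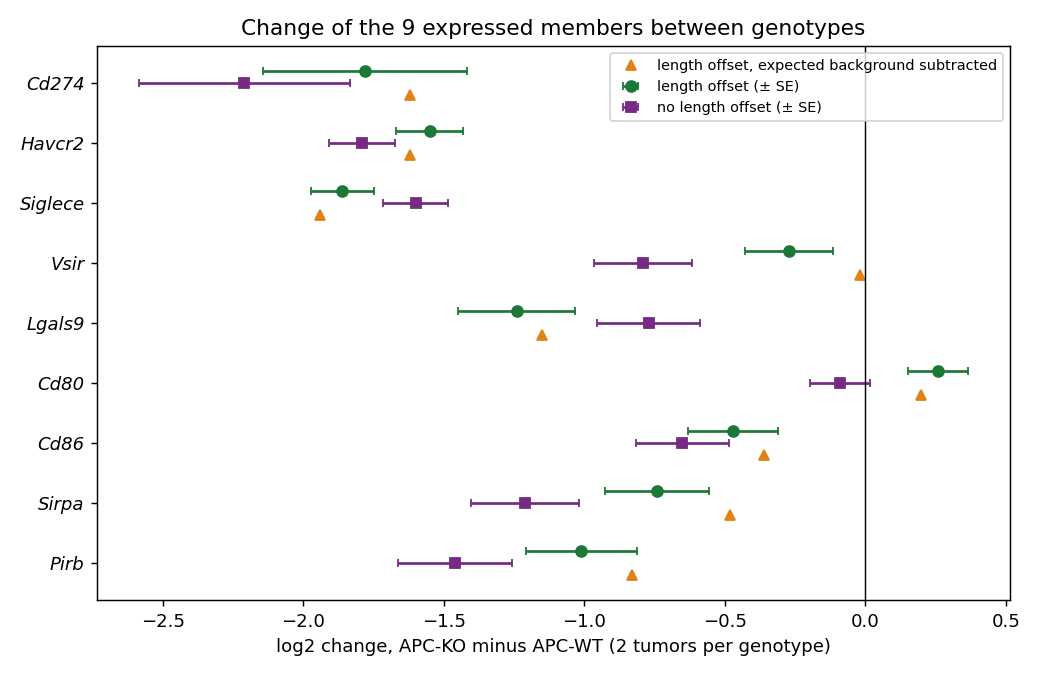
Log2 change of the 9 expressed members, APC-KO minus APC-WT with 2 tumors each, with the length offset (circles), without it (squares; bars are SE) and with expected background subtracted (triangles). Siglece, Cd274, Havcr2, Lgals9 and Pirb lie left of zero in each treatment and pass in each, Vsir reaches -0.02 after background subtraction, and Cd80 lies on either side of zero.

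The length of the transcript entered each of these values, since the APC-KO libraries held relatively more counts of short genes. Before the offset, the median log2 change was 0.77 over the 1403 expressed genes no longer than 2000 bp and -0.54 over the 1155 longer than 3500 bp. With the offset the rank correlation with length was -0.015. Cd274, Pirb, Sirpa and Vsir belong to the long genes, and the offset took -0.43, -0.45, -0.47 and -0.52 out of their log2 changes. Siglece and Lgals9 belong to the short genes, where it took out 0.26 and 0.47, so their changes became more negative.

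**Figure D3:**
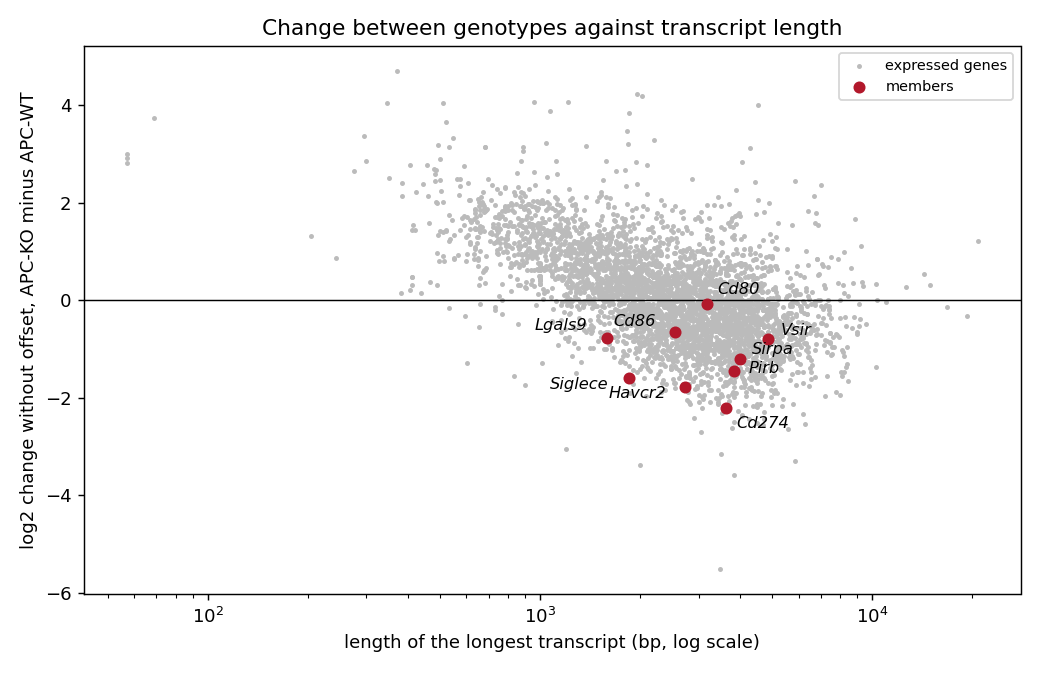
Log2 change without offset (APC-KO minus APC-WT) against the length of the longest transcript in bp on a log axis, for the 3941 expressed genes (grey) and the 9 members (red). Expressed genes slope downward with a rank correlation of -0.566, and the members run from -2.21 for Cd274 to -0.09 for Cd80.

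Setting single tumors against each other shows which members differ as much within a genotype as between genotypes. These 4 pairings share tumors, and their p-values measure the spread between libraries. Of the 9 expressed members, 8 fell in APC-KO tumor 1 against APC-WT tumor 1 (41.8% of expressed genes), 7 in APC-KO tumor 1 against APC-WT tumor 2 (40.6%), 8 in APC-KO tumor 2 against APC-WT tumor 1 (42.1%) and 8 in APC-KO tumor 2 against APC-WT tumor 2 (41%). Cd274, Havcr2, Siglece, Lgals9, Cd86, Sirpa and Pirb were lower in all 4 pairings, as were 31.2% of expressed genes, and 0 members were higher in all 4 (29.5% of expressed genes). Cd80 rose in both pairings with APC-KO tumor 1, by 0.38 and 0.37 on the log2 scale (edgeR adjusted p = 0.0064 and 0.00767), where 40.2% and 39.3% of expressed genes rose. In the pairings with APC-KO tumor 2 its differences were 0.19 and 0.18 (adjusted p = 0.15 and 0.167), where 39.3% and 39.4% rose. Without the length offset the rise of Cd80 was not called, and with TMM over all genes its difference was -3.82 and -2.54 in those 2 pairings.

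Of the 9 expressed members, Cd274 had the largest difference between tumors of 1 genotype, in both genotypes. APC-KO tumor 2 lay below APC-KO tumor 1 by a log2 difference of -0.87 ± 0.0628 (SE, edgeR adjusted p = 3.84e-11), and APC-WT tumor 2 lay above APC-WT tumor 1 by 0.52 ± 0.0604 (adjusted p = 1.07e-07). Its 4 pairings therefore ran from -1.14 to -2.54. Pirb had the same order of tumors as Cd274, with -0.37 for APC-KO tumor 2 against APC-KO tumor 1 (adjusted p = 1.98e-05) and 0.26 for APC-WT tumor 2 against APC-WT tumor 1 (adjusted p = 0.000523). Cd86 was lower in APC-KO tumor 2 than in APC-KO tumor 1 (-0.34, adjusted p = 2.56e-05) and did not pass between the APC-WT tumors (0.08, adjusted p = 0.234).

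Lgals9 and Sirpa had the opposite order of tumors. APC-KO tumor 2 lay above APC-KO tumor 1 by 0.17 for Lgals9 (adjusted p = 0.00285) and 0.18 for Sirpa (adjusted p = 0.00333), and APC-WT tumor 2 lay below APC-WT tumor 1 by log2 differences of -0.47 and -0.36 (adjusted p = 5.81e-10 and 3.08e-07). Havcr2 and Siglece did not pass between the APC-KO tumors, at -0.0023 ± 0.0864 and 0.05 ± 0.0984 (SE, adjusted p = 0.988 and 0.752), while between the APC-WT tumors Havcr2 was lower in tumor 2 (-0.21, adjusted p = 0.0318). Vsir did not pass between the APC-KO tumors (-0.13, adjusted p = 0.117) and was lower in APC-WT tumor 2 than in APC-WT tumor 1 (-0.23, adjusted p = 0.00441). In all, 3 members were lower and 2 higher in APC-KO tumor 2 than in APC-KO tumor 1, where 17.1% of expressed genes were lower and 16.4% higher. In APC-WT tumor 2, 4 were lower and 2 higher than in APC-WT tumor 1, where 27.9% of expressed genes were lower and 19.5% higher.

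**Figure D4:**
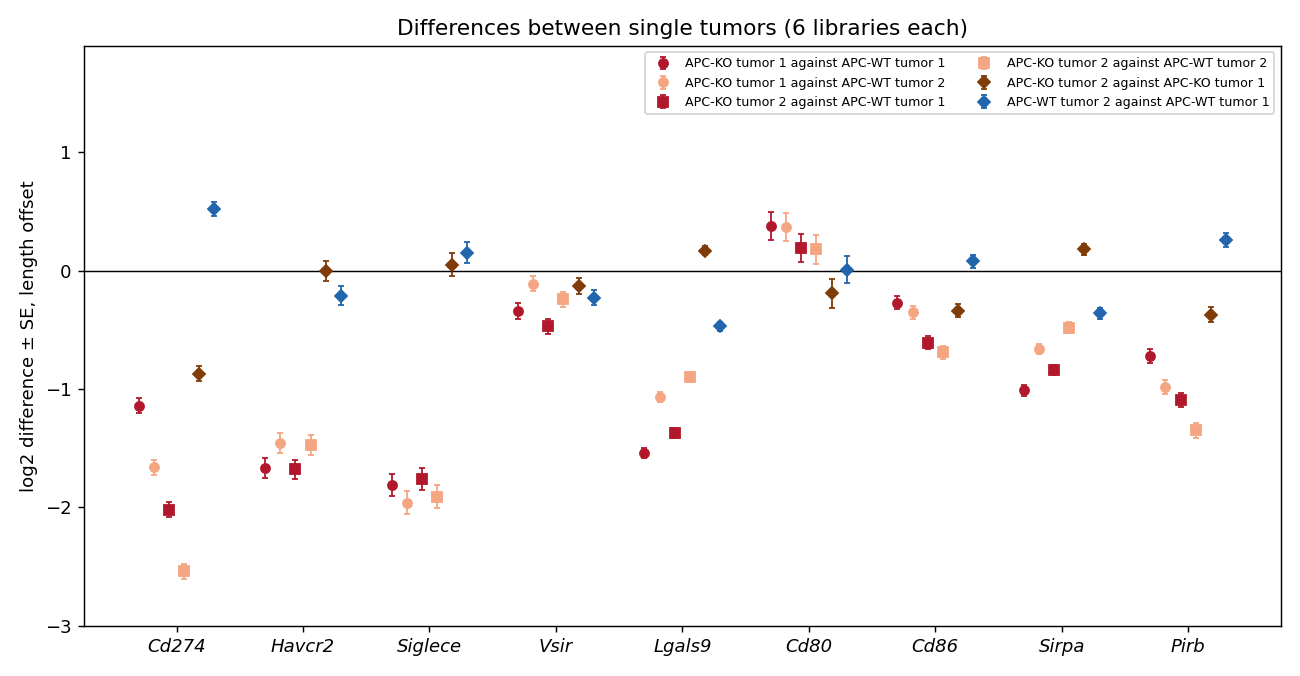
Log2 difference with SE (length offset) of the 9 expressed members for the 4 pairings of an APC-KO with an APC-WT tumor and for tumor 2 against tumor 1 within each genotype, 6 libraries a tumor. For Siglece and Havcr2 the 4 pairings lie between -1.96 and -1.46 and the within-genotype values between -0.21 and 0.15. For Cd274 the pairings spread from -2.54 to -1.14, with values of -0.87 and 0.52 within the genotypes.

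Per kilobase of transcript, Cd274 and Cd86 took different places among the members in the 2 genotypes. In APC-KO tumor 1 the levels were 144.9 scaled CPM per kilobase for Sirpa, 137.3 for Lgals9, 96.6 for Cd86, 73.4 for Vsir, 61.6 for Pirb, 56.7 for Cd274, 24.6 for Siglece, 23 for Cd80 and 20.9 for Havcr2. APC-KO tumor 2 had the same order down to Siglece, with Sirpa at 163.3 scaled CPM per kilobase and Cd274 at 31, and there Havcr2 and Cd80, at 21 and 20.1, changed places. In APC-WT tumor 1 Cd274 took the third place with 170.6 scaled CPM per kilobase, after Sirpa (409.9) and Lgals9 (282.3), and in APC-WT tumor 2 the second with 244.0, after Sirpa (315.8) and before Lgals9 (215.2). Sirpa led in all 4 tumors. Pirb, Vsir and Cd86 followed Cd274 in APC-WT tumor 1 at 140.2, 137.2 and 133.9 scaled CPM per kilobase, close beside each other. In APC-WT tumor 2 Pirb, Cd86 and Vsir followed Lgals9 at 167.1, 142.1 and 111.0. Cd86 took the third place in both APC-KO tumors. These levels carry neither the length offset nor a background subtraction. The trend that the offset removes was -0.18 for Cd86, against -0.43 for Cd274, -0.45 for Pirb and -0.52 for Vsir.

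Other genes of these pathways were read from lists chosen with earlier results of these data known. Many of these genes met the limit for expressed genes through the APC-WT tumors alone, so counts over the lists are descriptions, to be read beside the 24.5% of expressed genes that fell and the 24.9% that rose. Of 21 other ligands of T cell receptors 9 were expressed, of which 3 fell, 2 rose and 4 did not pass, with a median log2 change of -0.51. Icosl, Lgals8, Hmgb1 and Ceacam1 were the 4 that met the limit through APC-WT alone, and of the other 5 Fgl2 fell and Cd40 rose. Fgl2, whose secreted product binds the inhibitory receptor FcγRIIB, had means of 248.8 and 265.7 scaled CPM in the APC-KO tumors against 1652 and 1570 in the APC-WT tumors (log2 change -2.17 ± 0.147, SE, edgeR adjusted p = 0.00266). Lgals8, another galectin, had a log2 change of -0.65 (adjusted p = 0.0139), and Icosl, the ligand of the activating receptor ICOS, one of -0.51 (adjusted p = 0.0139). Cd40, a receptor through which T cells activate macrophages, rose by 0.63 (adjusted p = 0.0126), and Hmgb1, a nuclear protein that binds TIM-3 when released, rose by 0.92 (adjusted p = 0.0224), whereas with TMM over all genes both were negative (-3.74 and -3.45). With limits of 5 CPM and 5 times background neither passed (0.17, adjusted p = 0.319 for Cd40, and 0.46, adjusted p = 0.12 for Hmgb1), and Cd40 did not without the length offset (0.32, adjusted p = 0.059). Icosl did not pass without a filter on low counts (adjusted p = 0.0576). Fgl2 alone of these 5 kept its call without either APC-KO tumor. Without APC-KO tumor 1 the adjusted p was 0.0903 for Icosl and for Lgals8 and 0.0707 for Cd40, and without APC-KO tumor 2 it was 0.0994 for Icosl, 0.0554 for Lgals8, 0.0777 for Cd40 and 0.0901 for Hmgb1.

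With the length offset, most other inhibitory receptors of myeloid cells did not pass the test. Of 17 listed 12 were expressed, of which 3 fell, 1 rose and 8 did not pass. Their median log2 change was -0.15, where 24.5% of all expressed genes fell and 24.9% rose. Without the offset 7 of the 12 fell and 1 rose, with a median of -0.57, where 30.7% of expressed genes fell and 32.7% rose. The count for this list thus depends on the treatment of length. The 4 that passed met the limit in each genotype, and Lair1, Cd300a, Pecam1 and Milr1 met it through APC-WT alone. Cd72, an inhibitory lectin, averaged 730.6 and 783.1 scaled CPM in the APC-KO tumors and 1428 and 1474 in the APC-WT tumors (log2 change -0.72, edgeR adjusted p = 0.0147), and with 2 times the expected background subtracted it did not pass (-0.27, adjusted p = 0.182). Lilrb4a, an immunoglobulin-like inhibitory receptor, fell by 0.68 (adjusted p = 0.0394) and Fcgr2b, the inhibitory Fc receptor, by 0.61 (adjusted p = 0.0398), and both missed the threshold after subtraction of the expected background (adjusted p = 0.14 and 0.126). Clec12a, an inhibitory lectin for uric acid crystals, rose by 0.56 (adjusted p = 0.0195), but not without the length offset (0.19, adjusted p = 0.224), not with limits of 5 CPM and 5 times background (0.11, adjusted p = 0.488) and not with TMM over all genes (-3.78). None of these 4 passed without APC-KO tumor 1 (adjusted p of Cd72 0.0981, Lilrb4a 0.11, Fcgr2b 0.116, Clec12a 0.0948) or without APC-KO tumor 2 (0.0847, 0.185, 0.196 and 0.117 in the same order). Lilrb4a also missed it without APC-WT tumor 2 (adjusted p = 0.105) and Fcgr2b without APC-WT tumor 1 (adjusted p = 0.117).

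Downstream of the inhibitory receptors, 3 of 5 listed phosphatases and kinases were expressed, of which 2 fell and 1 did not pass. Ptpn11 and Inppl1 were below the limit and outside the test. Ptpn11, which encodes SHP-2, averaged 135.2 and 143.1 scaled CPM in the APC-KO tumors against 52.9 and 42.8 in the APC-WT tumors. Its expected background was 29.4 and 29.6 against 0.576 and 4.14. Inppl1 averaged 73.2 and 74.4 scaled CPM in APC-KO against 116.2 and 54.3 in APC-WT. Ptpn6, which encodes SHP-1, had means of 378.3 and 427.1 scaled CPM in the APC-KO tumors and 906.2 and 923.0 in the APC-WT tumors, a log2 change of -1.09 ± 0.142 (SE, adjusted p = 0.00586). Inpp5d, which encodes the lipid phosphatase SHIP-1, had 192.7 and 232.4 against 896.2 and 659.7 scaled CPM, a log2 change of -1.32 ± 0.202 (SE, adjusted p = 0.00822). Inpp5d met the limit for expressed genes through the APC-WT tumors alone, with APC-KO levels at 6.53 and 7.76 times background. Without APC-KO tumor 1 the adjusted p was 0.0502 for Ptpn6 and 0.056 for Inpp5d. Csk, a kinase that holds Src kinases inactive, changed by 0.23 (adjusted p = 0.256) and by -0.02 without the length offset.

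Among genes known to regulate Cd274, 13 of 15 were expressed, of which 6 fell, 1 rose and 6 did not pass, with a median log2 change of -0.58. Nfkb1 and Cmtm4 were below the limit and outside the test. Nfkb1 averaged 216.0 and 206.4 scaled CPM in APC-KO (expected background 47.3 and 47.6) against 67.6 and 85.9 in APC-WT (0.927 and 6.66). Cmtm4 averaged 39.2 and 49.7 in APC-KO (expected background 30.3 and 30.5) against 2.62 and 5.66 in APC-WT (0.594 and 4.27). Only 5 of the 13 met the limit in each genotype, of which Ifngr1 and Irf1 fell, and Ifngr2, Stat3 and Rela did not pass. The other 8, which include Hif1a, Cmtm6, Jak1, Stat2 and Irf2, met it through the APC-WT tumors alone. Hif1a, the hypoxia factor that binds the Cd274 promoter, averaged 201.8 and 127.1 scaled CPM in the APC-KO tumors and 784.3 and 1025 in the APC-WT tumors (log2 change -1.92, edgeR adjusted p = 0.00876). Its tumors stood in the same order as those of Cd274, lowest in APC-KO tumor 2 and highest in APC-WT tumor 2. Cmtm6, which protects PD-L1 protein from lysosomal breakdown, had 114.2 and 121.6 against 503.5 and 460.0 scaled CPM (log2 change -1.61, adjusted p = 0.00298). Ifngr1, a chain of the interferon-γ receptor, had 150.2 and 149.3 against 416.8 and 395.7 scaled CPM (log2 change -1.47, adjusted p = 0.00298). Irf1, the factor through which interferon-γ acts on Cd274, had 475.7 and 448.0 against 986.0 and 1061 scaled CPM (log2 change -1.16, adjusted p = 0.005). Of these 4, Hif1a and Cmtm6 met the limit through the APC-WT tumors alone, so their changes are a description. Stat2 and Jak1 were the others that fell, and they are named after their values were seen. Irf2, which competes with IRF1 for its sites, was the 1 gene that rose (0.31, adjusted p = 0.0454), but its change was -0.16 without the length offset and -4.16 with TMM over all genes, and it did not pass with any single tumor left out (adjusted p from 0.0876 to 0.215).

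**Figure D5:**
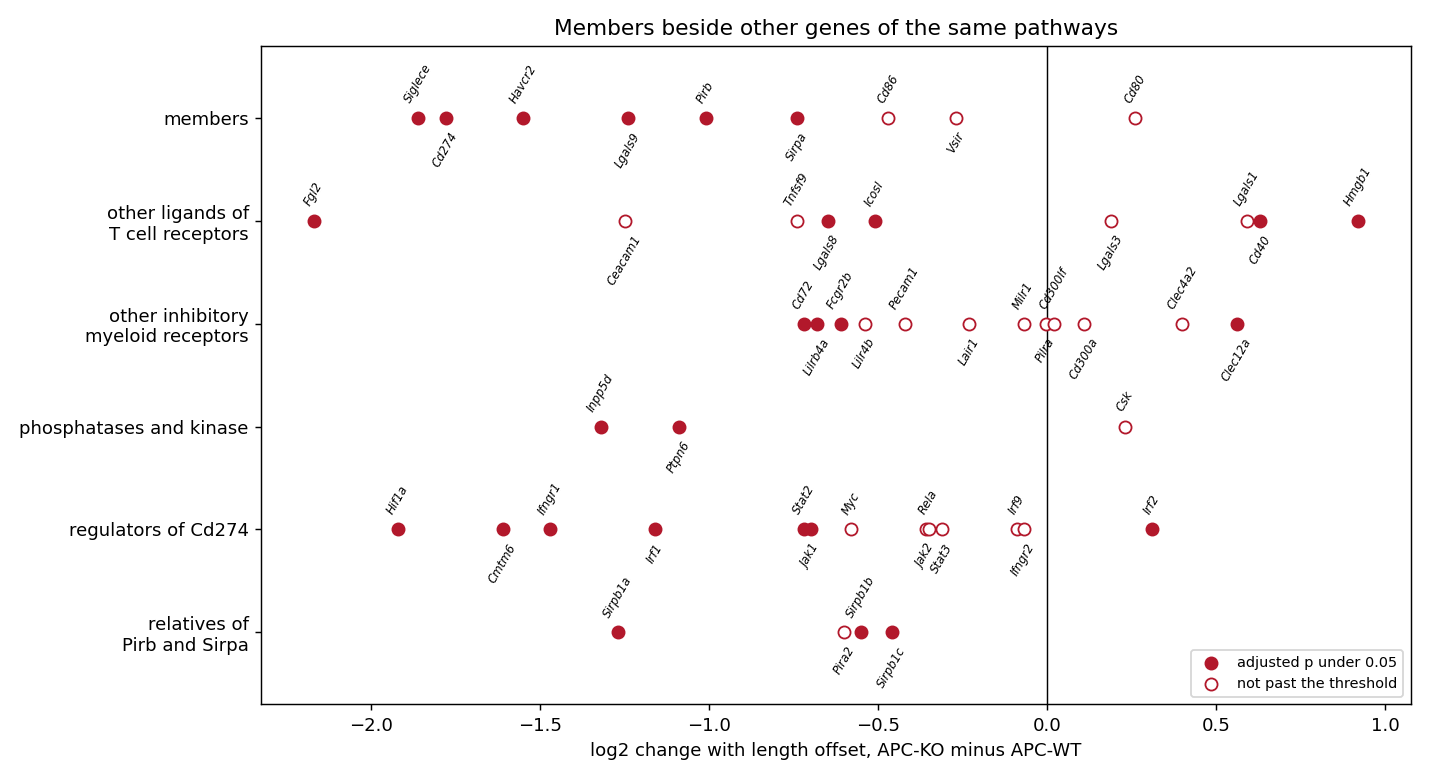
Log2 change with length offset (APC-KO minus APC-WT, 2 tumors each) of the expressed members and of the expressed genes of 5 lists, 1 row a list, with filled circles for an adjusted p under 0.05. In the members' row 6 of 9 circles are filled and all 6 lie left of zero, and in the row of other inhibitory myeloid receptors 4 of 12 are filled, 3 left and 1 right of zero.

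Of 10 listed partners of the members on other cells 5 were expressed, of which Hmgb1 rose and Bag6, Cd44, Ceacam1 and Cd47 did not pass. Cd47 and Cd44 met the limit in each genotype, and the other 3 through APC-WT alone. Cd47, the ligand of SIRPα, averaged 283.6 and 279.8 scaled CPM in the APC-KO tumors against 407.3 and 417.9 in the APC-WT tumors, with a log2 change of -0.02 ± 0.132 (SE, adjusted p = 0.896) with the offset and -0.54 without it (adjusted p = 0.0186). Bag6, Cd44 and Ceacam1 had log2 changes of 0.20, 0.60 and -1.25 (adjusted p = 0.161, 0.147 and 0.159). Pdcd1, which encodes PD-1, read 19.6 ± 3.23 and 36.4 ± 5.74 scaled CPM in the APC-KO tumors against 5.07 ± 0.607 and 7.8 ± 1.5 in the APC-WT tumors (SD, n = 6 libraries each), where background alone would give 7.57 and 7.62 against 0.148 and 1.07. Cd28 averaged 47.3 and 46.9 scaled CPM in the APC-KO tumors (expected background 24 and 24.2) and 2.2 and 6.73 in the APC-WT tumors (0.47 and 3.38). Ctla4 averaged 10 and 18.2 in APC-KO (expected background 9.13 and 9.19) and 1.47 and 3.69 in APC-WT (0.179 and 1.29).

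Markers of the sorted cell type moved with the members. Of 12 macrophage markers 11 were expressed, of which 6 fell, 0 rose and 5 did not pass, with a median log2 change of -0.66. Ptprc, Mertk and Mrc1 met the limit through the APC-WT tumors alone. Their summed level ranged over libraries from 20126 to 21963 scaled CPM in the APC-KO tumors and from 25874 to 30410 in the APC-WT tumors. The genes of the sort were among those that fell: Itgam (CD11b) averaged 276.2 and 276.6 against 1607 and 1743 scaled CPM, Adgre1 (F4/80) 271.0 and 282.6 against 1276 and 1127, and Ptprc (CD45) 386.9 and 403.4 against 1143 and 1131, APC-KO before APC-WT in each. Each lay above its expected background in every tumor, with Ptprc nearest to it at 71.8 and 72.3 expected in the APC-KO tumors. Their part in the changes of the members was not tested.

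Lists for other cell types had low sums in which the APC-KO background was a large share, and none of their genes had 0 counts in any tumor. The 10 T and NK cell markers, 0 of them expressed by the limit, summed to 121.9 to 162.1 scaled CPM in APC-KO tumor 1 and 273.6 to 299.0 in APC-KO tumor 2. Background alone would give 96.5 and 97.1 in these 2 tumors. Over the APC-WT libraries the sums were 29 to 62.2. Nkg7, a granule protein of cytotoxic cells, stood out in APC-KO tumor 2 with 54.1 to 66.7 scaled CPM, against 2.51 to 14.8 in APC-KO tumor 1, 3.08 to 4.25 in APC-WT tumor 1 and 6.3 to 9.58 in APC-WT tumor 2. The 8 dendritic cell markers, 0 expressed, summed to 254.2 to 331.5 scaled CPM in APC-KO, with 133.1 and 134.0 expected, against 23.8 to 73.1 in APC-WT. The 5 B cell markers, 1 expressed, summed to 105.0 to 141.3 in APC-KO, with 82.3 and 82.9 expected, against 21 to 37.9 in APC-WT.

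Sums of 6 neutrophil markers, 3 expressed, were 407.6 to 463.6 and 207.7 to 245.7 scaled CPM in APC-KO tumors 1 and 2. In APC-WT tumors 1 and 2 they were 283.2 to 303.7 and 495.1 to 569.2. Sums of 6 epithelial and tumor cell markers, 4 expressed, were 225.4 to 282.9 and 307.5 to 335.8 in the APC-KO tumors. In the APC-WT tumors they were 173.3 to 189.0 and 566.1 to 606.5. For both lists the genotypes overlapped, while the ranges of single tumors did not. The 6 fibroblast and endothelial markers, 3 expressed, summed to 270.6 to 481.3 scaled CPM in APC-KO against 821.8 to 1612 in APC-WT. The part of these cells in the levels of the members was not tested.

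Across the 24 libraries, the genes with a pattern most like that of 3 members were taken from 3758 expressed coding genes by Pearson's r of the log2 level with length offset. For Cd274 they were Hif1a, Fpr1, a receptor for formyl peptides, and Thbs1, which encodes thrombospondin-1, each with r = 0.992. For Siglece they were Arpc5, Capza1 and Arpc2 of the actin machinery, with r = 0.990, 0.988 and 0.987. For Cd86 they were Fpr1, Prkcd and Il1b, with r = 0.955, 0.954 and 0.954. The 24 points fall into 4 tumors that share depth and background, and within tumors the r of the same pairs was lower, from 0.259 for Cd274 with Thbs1 to 0.675 for Siglece with Arpc5.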

How the data were processed

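The counts that the authors deposited are whole numbers for 55487 mouse Ensembl gene IDs and 24 libraries. HISAT2, StringTie, bcl2fastq 2.20.0 and the build mm9 are named in the submitters' processing notes. Roles, settings, strand and annotation are not given in the sources used here. Symbols (55141 IDs) and lengths (55227 IDs) came from GENCODE M21, so coordinates are those of GRCm38.

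From these counts, expressed genes were taken as those with a mean CPM of at least 10 and at least 10 times the background per kilobase of exon, estimated from 1974 receptor genes. As satellite-like, 12 loci with a 15-mer share of 0.3 or more with Gm10800 were left out. The genotype was tested on sums over the 6 libraries of each tumor, 2 for APC-KO and 2 for APC-WT, with edgeR 4.0.16 (quasi-likelihood, two-sided, R 4.3.3), TMM over expressed genes and a loess offset (span 0.5) on log2 length of the longest transcript. Single tumors were compared in a fit of 24 libraries with a mean per tumor, and their p-values reflect differences among libraries, which may be technical. P-values were adjusted over all expressed genes by Benjamini-Hochberg with a threshold of 0.05. SE is the log2 change divided by the square root of F, and the prior count was 2. Depth differed up to several-fold between tumors, so APC-KO values carry more counting error.

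No pair of libraries held identical values, and libraries of a tumor differed by more than sampling noise (chi-square per degree of freedom 6.45 or more). Library numbers did not pair libraries: correlations of deviations between libraries of the same number had a median of -0.013, and 3 of 24 libraries correlated best with their own number. Alternatives were no offset, an offset on exonic length, TMM over all genes, DESeq2 1.42.0, limma-voom (limma 3.58.1), other filters, background subtraction, replicate blocks and leaving out each tumor. The scripts were tested on simulated counts. The members, the lists and the rule for named genes (all members, and in each list up to 4 expressed genes with the smallest p, plus any on which a count of 5 or fewer rests) were chosen with earlier results of these data known. Cd47, Pdcd1, Cd28, Ctla4, Ptprc, Nkg7, Ptpn11, Inppl1, Nfkb1 and Cmtm4 lie outside that rule and were named after their values were seen. The same holds for Cdh5, Kdr and Pdgfrb. A gene of 1 list is not reported here and was left out of its counts. Motifs were searched in RefSeq promoter windows. Protein sequences were not used here.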

Additional observations from a re-analysis of the deposited data

Results flagged for a closer look

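A library was set apart where its gap to the nearest of the other 5 libraries of its tumor exceeded Dixon's 95% critical share of the range of the 6. Over 40 sets of 6 libraries (10 members in 4 tumors) 3 met this, and chance gives about 1 in 20. Library 3 of APC-KO tumor 1 read 22.7 scaled CPM for Pdcd1lg2, above the other 5 at 15 to 17.9. Library 6 of APC-KO tumor 2 read 180.5 scaled CPM for Cd86, below the other 5 at 195.0 to 201.0. Library 1 of APC-WT tumor 1 read 1797 scaled CPM for Sirpa, above the other 5 at 1576 to 1632.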

How the results depend on the processing

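Over the alternatives run other than TMM over all genes, Havcr2 and Siglece passed in 14 of 14, with log2 changes from -2.01 to -1.43 and from -2.17 to -1.60 (the filter in each genotype leaves both out and gave no value), Cd274 and Lgals9 in 13 of 15, Pirb in 12 and Sirpa in 9. Havcr2 and Siglece met the limit for expressed genes through the APC-WT tumors alone. Their 14 of 14 is therefore a description and does not rank them above the other members. TMM over all genes gave 0 members and 0 genes either way. In the pairings and within genotypes it called 41300, 25138, 41401, 24926 and, for APC-WT tumor 2 against tumor 1, 33452 genes. There it gave 10 members lower and 0 higher, with Cd274 at -0.78, Siglece -1.10, Cd80 -1.28, Cd86 -1.21 and Pirb -1.04. It gave 0 members higher in both pairings of APC-KO tumor 1, as did no offset, and between the APC-KO tumors. Cd80 had -4.11 between genotypes and -3.82, -2.54, -4.01 and -2.73 in the pairings, and Cd40, Clec12a, Csk, Bag6, Hmgb1, Cd44 and Irf2 had -3.74, -3.78, -4.11, -4.28, -3.45, -3.77 and -4.16. Limits of 5 CPM and 5 times background gave 2107 genes lower and 1913 higher, with Cd80 at -0.20, Csk -0.23, Bag6 -0.24 and Irf2 -0.13. No filter gave 18757 higher over its larger number of genes. Without the offset Cd80 had -0.09, and -0.0032, -0.17 and -0.19 in 3 pairings, Csk -0.02, Bag6 -0.26, Irf2 -0.16, and Havcr2 0.0011 between the APC-KO tumors.

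With the tumor number as replicate block 547 genes were lower and 599 higher, and Cd274, Havcr2, Siglece and Lgals9 were the 4 members that passed (adjusted p 0.0538 for Pirb and 0.097 for Sirpa). The deviations of same-numbered tumors had a correlation of -0.413, so the crossed block was added after seeing the data: 1185 genes lower, 1163 higher and 7 members lower. With the library replicate block Havcr2 had 0.01 between the APC-KO tumors, and counts of members did not move. Leaving out 1 tumor, with the lone tumor assumed to vary like the others, gave 2 to 6 members and 349 to 983 genes lower and 434 to 927 higher, and Cd47 -0.10 without APC-WT tumor 1 and 0.06 without APC-WT tumor 2. Also added after seeing the data, the filter in each genotype gave 381 genes lower and 359 higher, and subtraction of 2 times the expected background 3 members lower, with Vsir at 0.47, Lilrb4a 0.02 and Cd47 0.64. Subtraction of 1 times it gave Cd47 0.19. The causes of these shifts were not tested. Pdcd1lg2, Cd80, Havcr2 and Siglece lay nearest to background among the members, with APC-KO levels under 7 times it.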
